A study of Mus musculus with 1666 samples.

Results

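Replication-dependent histone transcripts were followed in epithelial cells of embryonic mouse whisker follicles. The members are the 69 rows whose symbol begins with Hist1h, Hist2h, Hist3h or Hist4h, of 49662 symbols in the table, and 1 row of that kind marked as a pseudogene was left out. They comprise 6 H1, 20 H2A, 18 H2B, 12 H3 and 13 H4 genes. Epithelial cells were those with Krt5 and Trp63 at 10 TPM or more and Col3a1 under 50 TPM (a level scaled for gene length and library total), which gave 1035 of 1614 cells.

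The cells came from 7 stages and were sorted singly as ITGA6-positive, CD31-negative cells. Their RNA was read by RamDA-seq, which primes total RNA along its whole length and so also captures transcripts without a poly(A) tail. From E12.0 on, the mice carried nuclear Kikume Green-Red, a fluorescent protein that turns red under light. Whole single follicles were converted under the microscope, and red cells were sorted; at E11.5 no red gate was used. No label ties a cell to an embryo or litter; a stage therefore counts as 1 sample here, and p-values measure the spread between stages. E11.5 gave 54 epithelial cells and E12.0 gave 267. E13.0 and E13.5 gave 53 and 159, E14.0 and E15.0 gave 144 and 178, and E17.0 gave 180, on 18 plates in all. A plate is the cells of a stage whose titles share a code. Of the 14 codes 4 occur at more than 1 stage, 3 at E15.0 and E17.0 and 1 at E13.0 and E15.0, and the labels do not say what a shared code means. The fits treat stages as separate samples, so anything shared through a code is not allowed for. Values below follow this order of stages.

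Proliferating cells make the replication-dependent histones during S phase, when new DNA must be packed into nucleosomes. H2A, H2B, H3 and H4 form the nucleosome core, and H1 binds the DNA that enters and leaves it. Most of these messages end in a conserved stem-loop in place of a poly(A) tail. SLBP binds the stem-loop and directs 3′ processing, and NPAT, a target of cyclin E and CDK2, drives transcription of the genes in clusters. PCNA, the sliding clamp of DNA polymerases, is needed in S phase, and Ki-67, encoded by Mki67, is present throughout the cycle and highest in G2 and mitosis. Embryonic whisker epithelium contains cycling and resting cells side by side.

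The 56 Hist1 members lie on chromosome 13 (GRCm38, GENCODE M21 positions), between 21715763 and 51203065. The 10 Hist2 members occupy chromosome 3 from 96219865 to 96270132. Hist3h2a and Hist3h2ba, the 2 Hist3 members, are on chromosome 11 between 58948920 and 58956830. The single Hist4 gene, Hist4h4, is on chromosome 6 from 136801553 to 136804415. M21 annotates 67 members as protein coding, and Hist1h2aj and Hist1h2al as pseudogenes.

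The processing signal is shown because it is what the members share outside their coding sequence. A 16-base stem-loop with a perfect 6-base stem was found in M21 transcripts of 44 members. Each line gives 1 member of each of the 6 kinds found, 5′ to 3′, with the stem-loop in capitals and its flanks in lower case.
Hist2h2aa2: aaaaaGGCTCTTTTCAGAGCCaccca
Hist1h3c: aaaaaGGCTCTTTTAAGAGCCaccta
Hist2h2ac: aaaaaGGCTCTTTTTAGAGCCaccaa
Hist1h4d: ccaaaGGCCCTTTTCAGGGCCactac
Hist2h4: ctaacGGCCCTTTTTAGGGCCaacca
Hist1h4b: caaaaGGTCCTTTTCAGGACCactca
The first kind was the commonest, in 26 members (3 H1, 10 H2A, 8 H2B and 5 H3). The second occurred in 6 members, among them Hist1h3c and Hist1h2bk, and the third in Hist2h2ac. The last 3 kinds were found in H4 genes, 7, 2 and 2 of them. Of the 25 members with no match, 15 have gene models that hold the coding sequence alone, and a missing match says only that these letters are not in the model.

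Promoters are shown as a description. Their part in the correlation of members between cells was not tested. Promoter sequences of RefSeq (GRCm38.p6) were matched to 61 members, and the 250 bases before the start were searched on both strands. The CCAAT box (CCAAT) was present in 50 of them (81.97%, against 34.5% of 27025 promoters), and TATAAA in 29 (47.5% against 12.97%). The octamer ATTTGCAT was present in 13 (21.3% against 1.61%), 7 of 17 H2A and 6 of 16 H2B promoters, and in none of the H1, H3 and H4 promoters. The H1 box AAACACA was found in 5 of 6 H1 promoters, 2 H2A and 2 H2B promoters, and no H3 or H4 promoter (6.22% of all promoters). CCAAT was in all H1, H2A and H2B promoters matched, in 8 of 10 H3 and in 3 of 12 H4 promoters. Some H2A and H2B promoters overlap, so 1 site can be counted for both genes. The stretches of Hist1h2ah and Hist1h2bk overlap, for example, and both count for the octamer. The lines below give the 150 bases before the start of the H1 gene with the highest level, of an H2B gene with the octamer, and of the H4 gene with the highest level. Capitals mark these motifs on either strand; ATTGG is CCAAT read on the other strand.
Hist1h1b, chr13:21780626-21780775, minus strand: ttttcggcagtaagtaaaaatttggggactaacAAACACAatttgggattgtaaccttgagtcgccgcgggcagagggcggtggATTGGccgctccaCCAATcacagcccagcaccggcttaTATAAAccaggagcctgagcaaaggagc
Hist2h2bb, chr3:96269550-96269699, plus strand: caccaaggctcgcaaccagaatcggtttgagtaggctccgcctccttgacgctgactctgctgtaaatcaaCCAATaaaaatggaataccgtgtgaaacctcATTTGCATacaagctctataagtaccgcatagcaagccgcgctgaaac
Hist1h4k, chr13:21750554-21750703, minus strand: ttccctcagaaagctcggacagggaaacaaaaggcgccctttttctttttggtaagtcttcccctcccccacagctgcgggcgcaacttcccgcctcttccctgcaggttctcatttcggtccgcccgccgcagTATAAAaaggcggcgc
A match is a description of letters; binding of a factor was not measured here.

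Column totals ran from 991213 to 999516 TPM, and stage medians of genes at 1 TPM or more from 16497 to 19489, highest at E12.0. TPM keeps no read depth, so no counting error can be given for a single level. Genes the rule did not use fit the epithelial label: Krt14 was at 10 TPM or more in 92.9% of the cells and Cdh1 in 97.9%. Itga6 was at 10 TPM or more in 96.3%, but it encodes the gated ITGA6, so its share cannot test the label. Of the markers listed for other cell types, Erbb3, a neuregulin receptor on the nerve and Schwann list, was on at that level in 75.5%. The collagen genes Col1a2 and Col1a1 were on in 28.02% and 15.7%, Dcn in 26.3%, Pecam1, which encodes the gated CD31, in 17.8% and Mitf in 17.005%. Twist2, Cdh5, Kdr, Emcn, Foxd3 and Tyrp1 were on in 0 cells, and the other listed markers in 0.0966 to 6.96%.

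All 69 members were above 0 in some epithelial cell, and 64 reached a mean of 1 TPM over the stages: 5 H1, 18 H2A, 17 H2B, 12 H3 and 12 H4. The 33 members at 10 TPM or more were 5 H1, 9 H2A, 11 H2B, 3 H3 and 5 H4. A stage mean gives each plate of the stage equal weight. Copies that are nearly identical in sequence share reads that may not be assignable. Of the 69 members, 8 shared over 90% of their 50-base words with another member, 32 over 50% and 11 under 10%. How the authors treated reads with several matches is not given in the sources used here, so levels of single copies are uncertain. TPM also depends on the length of the gene model, and models ran from the coding sequence alone to 7425 bases for Hist1h1d.

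Summed histone RNA was 1314, 1581, 816, 737, 1771, 1256 and 1294 TPM from E11.5 to E17.0. H2B genes held the largest part at every stage, with 604, 697, 327, 271, 642, 466 and 490 TPM. H2A genes summed to 242, 286, 155, 175, 409, 259 and 277 TPM and H4 genes to 240.0, 299.9, 164, 144, 316, 246 and 238 TPM. H1 genes summed to 145, 177, 105, 92.4, 262, 172.99 and 181 TPM and H3 genes to 83.6, 121, 65.1, 54.6, 142, 112 and 108.4 TPM. All 5 classes were lowest at E13.0 or E13.5, and all but H2B were highest at E14.0. Among single members, 35 were highest at E14.0 and 21 at E12.0, while 30 were lowest at E13.5 and 20 at E13.0.

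**Figure D1:**
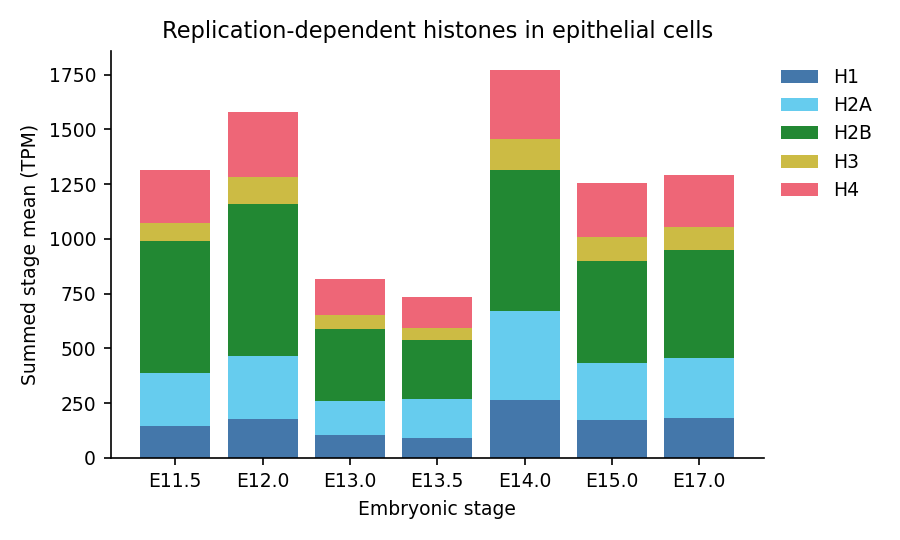
Stacked bars give the summed stage means (TPM, vertical axis) of the H1, H2A, H2B, H3 and H4 members in epithelial cells at each embryonic stage (horizontal axis). The stacks are lowest at E13.0 (816 TPM) and E13.5 (737 TPM) and highest at E14.0 (1771 TPM), with H2B the largest segment throughout.

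The H1 genes encode linker histones, and Hist1h1b had the highest mean of them. Hist1h1b was at 46.4, 49.7, 31.7, 27.8, 61.6, 37.8 and 49.8 TPM from E11.5 to E17.0, and single plates ranged from 16.1 to 69.1 TPM. Hist1h1d was at 36.04, 36.6, 30.2, 23.5, 77.1, 48.8 and 46.5 TPM, and Hist1h1e at 24.6, 34.9, 21.1, 19.5, 61.8, 41.2 and 44.9 TPM. For all 3 linker genes E13.5 was lowest and E14.0 highest. Plates of E13.5 gave 26.5 to 29.01 TPM for Hist1h1b, 23.1 to 23.9 for Hist1h1d and 18.98 to 20.1 for Hist1h1e. Those of E14.0 gave 54.1 to 69.1, 60.6 to 93.7 and 54.7 to 68.998 TPM in the same order. The plates of these stages did not overlap, but for each gene plates of E13.0 ranged from below to above those of E13.5.

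Of the H2A genes, Hist2h2aa2 had the highest mean, with 29.5, 41.7, 27.8, 40.1, 106, 63.2 and 68.7 TPM. Its transcript shares 100% of its 50-base words with Hist2h2aa1. Hist1h2ap was at 34.2, 34.2, 18.2, 31.4, 67.8, 38.4 and 51.1 TPM, and Hist1h2ak at 32.9, 32.9, 13.01, 11.9, 32.6, 19.5 and 21.8 TPM. Hist2h2aa2 and Hist1h2ap peaked at E14.0, whereas Hist1h2ak was about level at E11.5, E12.0 and E14.0.

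Of the H2B genes, which pair with H2A in the nucleosome core, Hist1h2bl had the highest mean of all members. It was at 217, 184, 103, 46.6, 114.03, 82.6 and 103 TPM, and its plates ranged from 55.4 to 260 TPM at E12.0 and from 17.8 to 206 TPM at E13.0. Hist1h2bn was at 78.3, 103, 44.1, 33.9, 93.7, 58.4 and 68.4 TPM, and Hist2h2bb at 55.8, 81.04, 42.2, 33.8, 81.2, 63.9 and 65.5 TPM. Hist1h2bl was highest at E11.5, a stage with a single plate, and its plate ranges at E12.0 and E13.0 overlapped those of later stages.

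Among H3 genes, Hist1h3h was at 21.5, 31.6, 19.7, 9.69, 28.3, 31.5 and 24.9 TPM. Hist1h3c was at 13.7, 15.1, 6.87, 10.3, 21.4, 19.5 and 20.3 TPM, and Hist1h3a at 12.1, 12.5, 6.37, 8.21, 18.9, 12.5 and 11.8 TPM. The low point again fell at E13.0 or E13.5 for all 3.

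The H4 genes encode the partner of H3, and Hist1h4k led them with 106, 111, 55.5, 43.9, 101, 66.4 and 70.1 TPM. Hist1h4d was at 68.3, 87.4, 42.5, 43.04, 103, 74.9 and 81.4 TPM, and Hist1h4c at 14.95, 23.2, 16.3, 14.5, 28.99, 30.4 and 21.9 TPM. Hist1h4d was the member on in the most cells, at 10 TPM or more in 77.1% of epithelial cells. Hist1h4k was so in 72.4%.

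The testis variants were near 0. Hist1h1t was at 0.16, 1.17, 0.30, 0.16, 1.05, 0.61 and 0.35 TPM. Hist1h2aa was listed at 0 at every stage except E12.0 (0.47 TPM), and Hist1h2ba stayed at or below 0.58 TPM.

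Whether members changed in a line with embryonic day was tested with limma, a linear model fitted across 23671 genes, on log2(stage mean TPM + 1). Adjusted p-values follow Benjamini and Hochberg over all genes tested, with a threshold of 0.05. Of all genes, 1.92% were called, and 0 of the 64 tested members were; 4 members had an unadjusted p under 0.05, against 18.7% of all genes. The slopes had a median of 0.018 log2 units per day, and 35 of 64 were positive. The steepest slope was negative, -0.41 per day for an H2A gene. Hist1h2bc, an H2B gene that is also made as a polyadenylated message, had the largest positive slope, 0.29 per day over the 7 stages (SE 0.072, adjusted p = 0.097 by limma). Its level was 8.74, 14.4, 12.4, 15.4, 25.4, 30.9 and 26.9 TPM, higher at each of the last 3 stages than at the first 4. Fitted against stage rank and not day, its limma adjusted p was 0.019.

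Stage means hid a wide split between cells. A member was called on in a cell at 10 TPM or more. The number of members on per cell ran from 0 (in 1 cell) to 61, with a median of 13. A cell with 30 or more members on is called a many-on cell here. That limit was chosen after the distribution had been seen, it marks a range and not a cell type, and 60 cells had 25 to 34 members on. Many-on cells numbered 200 of 1035 (19.3%, exact 95% interval 16.96 to 21.9%, counting error only), and they held 74.4% of all histone TPM. Their median summed level was 4135 TPM, against 341 TPM in the other 835 cells.

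By stage, many-on cells made up 11.1% (6 cells), 33.3% (89), 3.77% (2), 8.81% (14), 23.6% (34), 13.48% (24) and 17.2% (31) from E11.5 to E17.0. E12.0 and E14.0 had the largest shares, as they had high class sums. Plates of a stage differed: the share was 26.97 to 41.4% over the 3 plates of E12.0, 13.8 to 22.4% over those of E17.0, and 0 of 23 cells on 1 plate of E13.0 (exact 95% upper limit 14.8%; 3 cells of 23 would be 13.04%). At a limit of 50 TPM per member, 6.28% of all cells were many-on, and E12.0 went from the highest share to the lowest, 3.37%, with E14.0 highest at 11.8%. At 1 TPM the share was 47.8%. Many-on cells of E12.0 had the lowest median summed level, 3258 TPM, against 5642 TPM at E14.0 and 9858 TPM at E11.5. E12.0 cells also had the most genes detected, and the part of detection in the E12.0 share was not tested. Pooled over all stages, many-on cells had a median of 18022.5 genes and the others of 17377. Within stages the order varied: many-on cells had fewer genes at E12.0 (19173 against 19602) and E13.0 (17325 against 17603), and more at the other stages.

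**Figure D2:**
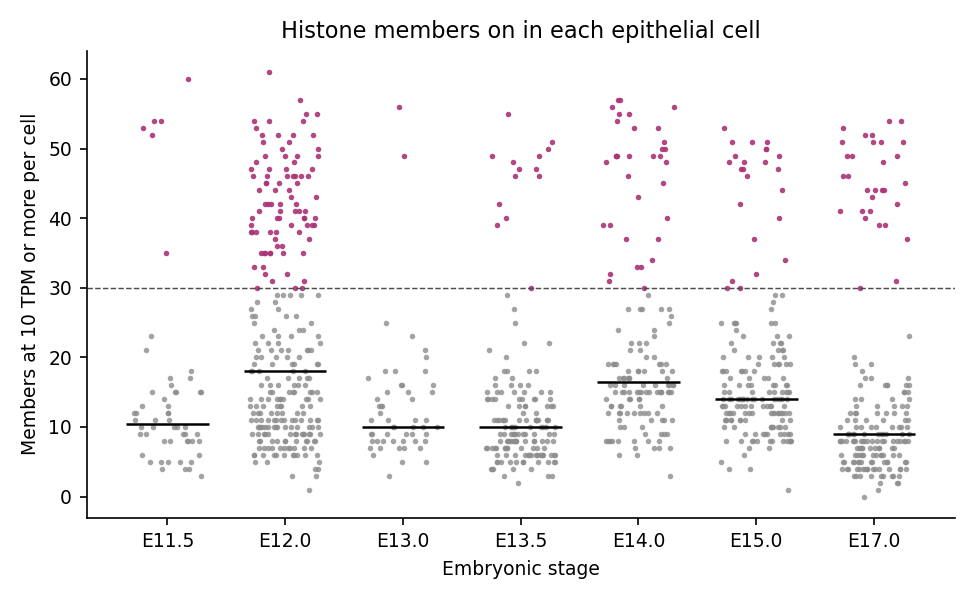
Each point is 1 epithelial cell, with the number of histone members at 10 TPM or more on the vertical axis and the embryonic stage on the horizontal axis. Cells at or above the dashed line of 30 members are coloured, black bars are stage medians, and most cells lie well below the line while 200 of 1035 lie on or above it.

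Members differed in how closely they kept to these cells. Hist1h1a, a linker histone, was on in 94.5% of many-on cells and in 14.01% of the others. Hist1h1b was on in 99% and 34.01%. Hist1h2bc, by contrast, was on in 53.5% of many-on cells and in 50.7% of the others, and Hist1h1c in 80.5% and 28.1%. These shares describe cells that the same genes defined. The class makeup of histone TPM was compared without a test. H2B took 40.5% in many-on cells and 37.5% in the rest, H2A 20.8% and 20.7%, H1 12.8% and 13.8%, H4 17.5% and 21.9%, and H3 8.40% and 6.19%. The H4 part was smaller in many-on cells at all 7 stages (15.5 to 18.9% against 19.1 to 26.9%), and the H3 part larger (6.43 to 10.1% against 5.07 to 7.73%).

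Pcna and Mki67 were read in the same cells. Median Pcna was 138 TPM in many-on cells and 27.7 TPM in the others, and median Mki67 was 92.7 and 1.92 TPM. Of 396 cells with Mki67 at 10 TPM or more, 194 were many-on (48.99%, exact 95% interval 43.96 to 54.03%), against 6 of 639 below that level (0.939%). In the 201 cells with Mki67 at 0, no cell was many-on (exact 95% upper limit 1.82%; 3 cells of 201 would be 1.49%). Of 410 cells with Pcna at 50 TPM or more, 177 were many-on (43.2%), and of 625 below it 23 (3.68%).

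The share of many-on cells was highest where both markers were high. With Mki67 at 10 TPM or more and Pcna at 50 TPM or more, 172 of 275 cells were many-on (62.5%, exact 95% interval 56.5 to 68.3%). With high Mki67 and lower Pcna the count was 22 of 121 (18.2%), with high Pcna and lower Mki67 it was 5 of 135 (3.70%), and with neither it was 1 of 504 (0.198%). Cells share plates and stages, so these shares carry no test.

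**Figure D3:**
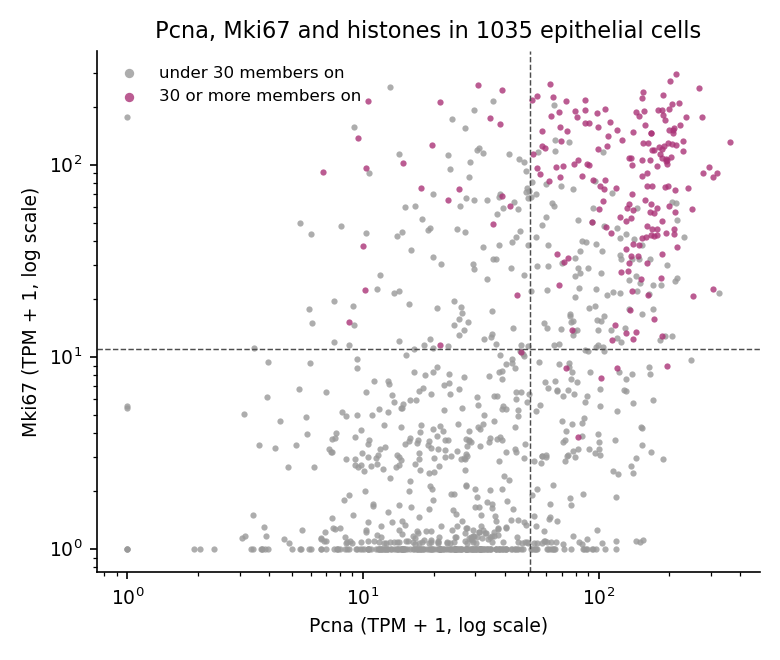
Each point is 1 of 1035 epithelial cells, with Pcna on the horizontal and Mki67 on the vertical axis (TPM + 1, log scales); coloured points had 30 or more histone members on, and dashed lines mark 50 TPM of Pcna and 10 TPM of Mki67. Coloured points gather in the upper right, where 172 of 275 cells were many-on, and 1 of 504 lies at the lower left.

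To compare stages as samples, cells were ranked by Pcna within their plate, on the 16 plates with at least 15 epithelial cells (1011 cells). The upper and lower terciles of each stage, 12 to 88 cells each, were averaged and their difference taken on log2(TPM + 1). Mean Pcna was 78.97 to 168 TPM in the upper tercile and 8.12 to 33.5 TPM in the lower. Histone members rose with Pcna: 53 of 64 passed as higher in the upper tercile and 0 as lower, where 6.12% of all 23671 genes passed as higher (limma on 7 stage differences, adjusted p 0.05). The median difference was 1.76 log2 units for members and 0.0056 for all genes, and 54 of 64 were positive at all 7 stages. By class, 4 of 5 H1, 15 of 18 H2A, 13 of 17 H2B, 11 of 12 H3 and 10 of 12 H4 genes rose, with medians of 2.15, 1.71, 1.97, 2.18 and 1.63.

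Hist1h1a had the largest Pcna difference. Its values were 2.67, 2.30, 3.68, 3.10, 3.54, 3.48 and 5.601 log2 units from E11.5 to E17.0, a mean of 3.48 (SE 0.33, limma adjusted p = 0.00044). Every stage was positive, with E17.0 above the rest. Hist1h2ap rose by 1.69, 2.45, 4.02, 2.24, 3.54, 3.83 and 6.16, a mean of 3.42 (SE 0.46, limma adjusted p = 0.0027). Hist1h3h averaged 3.04 (SE 0.29, limma adjusted p = 0.00041), Hist1h2af 3.003 and Hist1h2bn 2.91 (SE 0.41, limma adjusted p = 0.0031). These 5 come from the H1, H2A, H2B and H3 classes, and all were positive at 7 of 7 stages. Hist1h2ap, Hist1h3h, Hist1h2bn and Hist1h2af share 93.1, 93.9, 86.4 and 79.7% of their 50-base words with other members, so levels of these single copies are uncertain. Hist1h1a shares 0%.

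Among the highly expressed members, Hist1h2bl differed by 2.35, Hist1h4k by 1.92, Hist1h4d by 2.22, Hist2h2aa2 by 1.68, Hist2h2bb by 2.56 and Hist1h1b by 2.72 log2 units, all called. Hist1h1e (1.63, limma adjusted p = 0.0026) and Hist1h2bn were not called under a stricter epithelial rule (adjusted p = 0.052 and 0.063 by limma).

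At the other end were the 5 members with the smallest differences, none of which passed. Hist1h2bc gave -0.31, -0.19, -0.12, 0.86, -1.36, -0.10 and -0.74 log2 units, a mean of -0.28 (SE 0.22, limma adjusted p = 0.52). Hist1h1c, which encodes linker histone H1.2, gave 0.50, -0.19, 0.01, 1.17, -0.47, -0.20 and 1.35, a mean of 0.31 (SE 0.23, limma adjusted p = 0.49). Both changed sign between stages. Hist1h2bq averaged -0.05, Hist3h2ba 0.07 and Hist4h4 0.32, with limma adjusted p-values of 0.94, 0.78 and 0.30. Hist1h2bq shares 97.3% of its 50-base words with Hist1h2br, so its own level is uncertain. The 6 others that did not pass were Hist1h2aj, Hist1h2ao, Hist1h4m, Hist2h2be, Hist2h3c1 and Hist3h2a, with differences of 0.61, 0.39, 1.002, 0.35, 0.38 and 0.55.

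**Figure D4:**
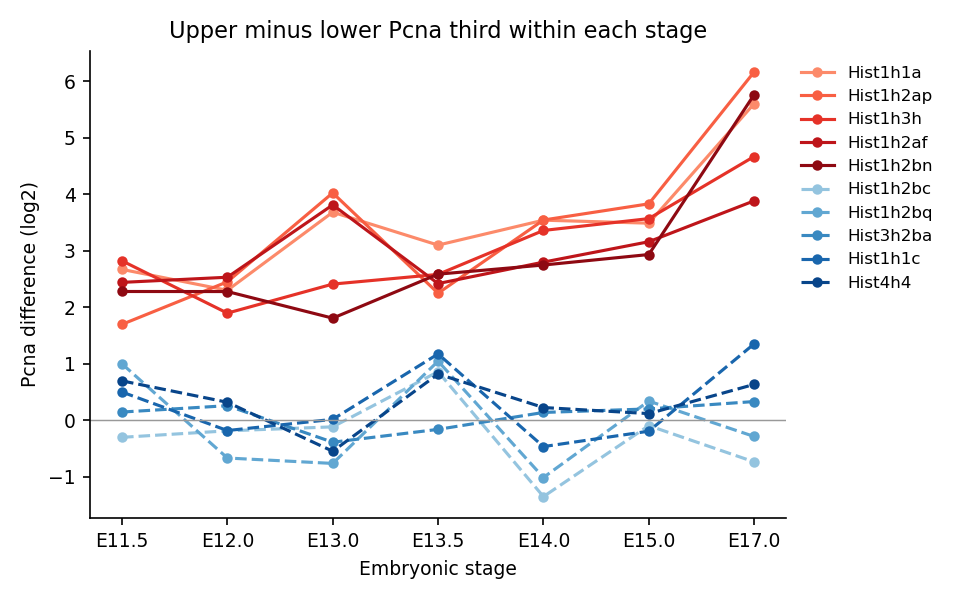
Lines give the difference between the upper and lower Pcna tercile (log2 units, vertical axis) at each embryonic stage (horizontal axis) for the 5 members with the largest mean difference (solid) and the 5 with the smallest (dashed). The solid lines stay above 0 at all 7 stages, and the dashed lines run on both sides of 0 or close to it.

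Histone members rose with Mki67 as well. Mean Mki67 was 43.8 to 101 TPM in the upper tercile and 0.0063 to 2.48 TPM in the lower. Lower terciles held many cells at 0 TPM, from 13 of 88 at E12.0 to 49 of 59 at E17.0, and such ties were ordered at random. With Pcna at most 2 lower-tercile cells of a stage were at 0, so the 2 splits are unlike. Of 64 members, 50 passed as higher in the upper Mki67 tercile and 0 as lower, against 4.52% of all genes passing as higher. The median difference was 2.33 log2 units, against 0.045 for all genes, and 44 members were positive at all 7 stages. Hist1h2ap differed by 4.49 (SE 0.34, limma adjusted p = 0.00019) and Hist1h1a by 3.91 (SE 0.28, limma adjusted p = 0.00014). Hist1h2bc differed by 0.96 (limma adjusted p = 0.13) and Hist1h1c by 1.09 (limma adjusted p = 0.12), and neither passed. Without E17.0, Hist1h2bc passed (1.24, limma adjusted p = 0.036). The same 48 members were called in both rankings, and 9 were called in neither.

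The difference between the Pcna and Mki67 differences was tested as well. No member passed with limma (28 had an unadjusted p under 0.05, against 14% of all genes, and 15 to 39 with 1 stage left out, fewest without E14.0). Of all genes 0.00422% passed, which is Pcna itself. The median was -0.50 log2 units (-0.30 under the stricter epithelial rule and -0.26 with means of log2 values), and 4 of 64 members were positive. Hist1h2bc had -1.24 (limma adjusted p = 0.23) and Hist1h1a -0.43 (limma adjusted p = 0.45). For comparison, all 16 genes of an S phase list, Pcna among them, lay on the Pcna side (median 0.67), and all 15 of a G2/M list, Mki67 among them, on the Mki67 side (median -1.80). The members' median lay between these.

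**Figure D5:**
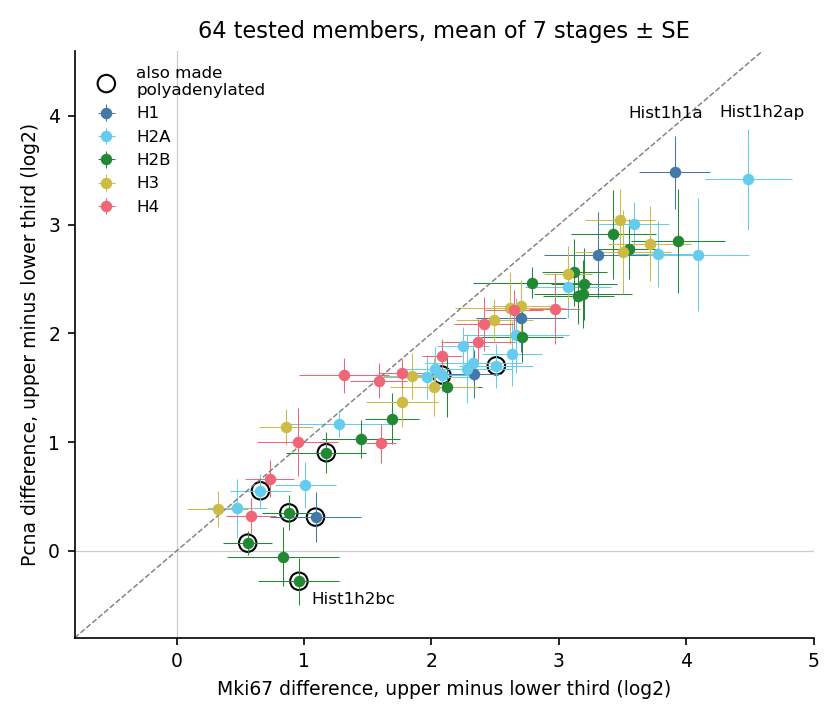
Points are the 64 tested members, coloured by class, with the mean Mki67 difference (horizontal) and the mean Pcna difference (vertical) over 7 stages in log2 units; bars are SE, the dashed line marks equal differences, and rings mark 8 members known to be made also as polyadenylated messages. Of the 64 points, 4 lie above the dashed line, and the ringed Hist1h2bc is the lowest on the vertical axis.

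Against embryonic day, the Pcna differences of members had mostly positive slopes, none of which passed the threshold. With limma, 0 of 64 members and no other gene passed, while 36 members had an unadjusted p under 0.05, against 7.04% of all genes. The median slope was 0.25 log2 units per day, and 56 slopes were positive. Without E17.0 the median was 0.050, with 41 positive slopes and 15 members at an unadjusted limma p under 0.05. The stricter epithelial rule left 7 such members, and means of log2 values left 13. Hist2h2bb, an H2B gene, gave 1.62, 1.501, 2.42, 2.69, 2.54, 2.60 and 4.55, a slope of 0.50 per day (SE 0.068, limma adjusted p = 0.11). Its adjusted p was 0.047 when only genes with a mean of 10 TPM or more were tested with limma.

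Some members are known to be made also as polyadenylated messages that persist outside S phase. Of 9 such genes listed, 8 have a row, and 3 of these 8 rose with Pcna (median difference 0.45). Of the other 56 tested members, 50 rose (median 1.95). With Mki67 the counts were 3 of 8 and 47 of 56, with medians of 1.02 and 2.45. Hist1h2bc, Hist1h1c, Hist2h2be, Hist3h2a and Hist3h2ba were the 5 listed members that did not pass with Pcna. Hist2h2aa1, a listed member that rose, shares 89.2% of its 50-base words with other members, mainly the unlisted Hist2h2aa2. Its own level is therefore uncertain. The difference between these groups was not tested, and the list was drawn up with earlier results of these data known.

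Members were also grouped by where their gene models end. In 22 tested members whose M21 transcript ends within 100 bases after the stem-loop, 20 rose with Pcna (median 2.16). In 20 whose transcript runs on for longer, 15 rose (median 1.51), and 5 of these are on the polyadenylated list. In 22 without a stem-loop in the model, 18 rose (median 1.95). The transcript of Hist1h1c, for example, runs 840 bases past the stem-loop, and that of Hist4h4 2445 bases, whereas that of Hist2h2aa2 ends 35 bases after it. The models are annotation and were not checked against reads here.

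Across cells the members were positively correlated. Over 2016 pairs of members, the median of Spearman's rho, taken within plates and averaged, was 0.37, and 96.8% of pairs were positive. Pairs within a class had a median of 0.35 and pairs of different classes of 0.38. The highest pair was Hist1h1b and Hist1h1d (0.62), which share at most 2.21% of their 50-base words. The summed level of the members correlated with Mki67 at 0.51 (0.29 to 0.73 over stages) and with Pcna at 0.40 (0.28 to 0.47). Pcna and Mki67 correlated with each other at 0.40. Cells of a plate share library preparation, so these values over 1011 cells are descriptions without a p.

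Some near-identical copies were among the lowest pairs. Hist1h4m and Hist1h4n had a rho of -0.28: they were on in 250 and 264 cells but together in 31. They share 89.8% and 85.6% of their 50-base words. Hist1h2ao and Hist1h2ap, with 93.5% and 93.1% shared, were both on in 40 cells (rho -0.10). Hist1h2ai and Hist1h2aj had -0.13. The remaining pairs of the 5 lowest were Hist1h2ao with Hist1h2ah (-0.098) and with Hist1h3g (-0.092), an H3 gene. Other near copies had positive values: Hist2h2aa1 and Hist2h2aa2 (0.29), Hist1h2bq and Hist1h2br (0.29), and Hist1h3h and Hist1h3i (0.27). The sample descriptions come in 3 formats, whose meaning the labels do not give. By format, medians over plate means of Hist1h4m were 13.003 TPM (3.001 to 15.7), 5.85 TPM (2.55 to 7.89) and 6.75 TPM (5.11 to 8.41). Those of Hist1h4n were 6.23 TPM (3.49 to 15.2), 16.3 TPM (3.33 to 26.5) and 14.5 TPM (8.72 to 15.6). The ranges overlap, and 2 plates of E13.0 had the opposite order to the others of their format. The part of read assignment and of format in this pattern was not tested.

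Among the 11512 genes that reached 10 TPM in 20% or more of the cells, those most like the summed histone level were taken, leaving out predicted, ribosomal protein, mitochondrial and small RNA genes. The 10 highest were Cdca5 (rho 0.56), Melk (0.53), Mki67 (0.51), Pbk (0.51), Kif11 (0.50), Kif15 (0.50), Incenp (0.50), Aurkb (0.49), Rrm1 (0.49) and Dek (0.49). The median over these genes was 0.0014. Cdca5 protects sister chromatid cohesion, Incenp and Aurkb belong to the chromosomal passenger complex, and Rrm1 is a subunit of ribonucleotide reductase, which makes DNA precursors. Among all 11512 genes, with none left out, Pcna ranked 100 (0.40), Slbp 167 (0.35) and Npat 642 (0.19).

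Genes that make, process and carry histones were examined as lists, which were chosen with earlier results of these data known. Of all genes, 6.12% passed as higher with Pcna and 4.52% with Mki67. Of 11 measured genes of histone RNA processing, 5 rose with Pcna and 2 with Mki67. Slbp rose by 1.39 log2 units with Pcna (SE 0.11, limma adjusted p = 0.00014) and by 0.90 with Mki67 (limma adjusted p = 0.020). Lsm10, a subunit of the U7 particle that cuts the 3′ end, had differences of 0.15 and -0.15 and passed in neither. Slbp had the largest Pcna difference of this list, whose median was 0.33.

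Of 9 genes that drive histone transcription, 7 rose with Pcna and 6 with Mki67. Npat rose by 0.63 with Pcna (SE 0.093, limma adjusted p = 0.0040), with a Mki67 difference of 0.41 that did not pass (limma adjusted p = 0.078). E2f2, an activator of S phase genes, rose by 2.86 and 2.68, and Ccne1, which encodes cyclin E1, by 1.71 and 1.09. In many-on cells the mean of stage means was 21.2 TPM for E2f2, against 2.36 TPM in the rest, and 23.5 against 7.73 TPM for Ccne1. Both genes were higher in many-on cells at all 7 stages. Each stage has equal weight in such means, though E13.0 had 2 many-on cells and E11.5 had 6.

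Of 11 histone chaperones, which hand histones to DNA, 8 rose with Pcna and 9 with Mki67. Chaf1a and Chaf1b, subunits of the chromatin assembly factor that works at the replication fork, rose by 2.49 and 1.83 with Pcna. Asf1b rose by 1.95 with Pcna, and Nasp by 1.27. Daxx, a chaperone of replication-independent H3.3, had differences of 0.09 and 0.13 and passed in neither.

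Replication-independent histones are deposited also outside S phase. Of 9 measured, 2 rose with Pcna (median difference 0.26) and 6 with Mki67 (0.98). H2afz, encoding H2A.Z, rose by 1.23 with Pcna and 1.27 with Mki67. H3f3a, encoding H3.3, differed by 0.07 and 0.09 and passed in neither. Cenpa, the centromeric H3, rose by 3.32 with Mki67 (limma adjusted p = 0.00011) and differed by 0.49 with Pcna (limma adjusted p = 0.53). H2afx was at 32.8 TPM in many-on cells and 7.16 TPM in the rest, again with equal weight for each stage.

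All 16 S phase genes, Pcna included, rose with Pcna (median 2.12) and 13 with Mki67 (median 1.49); all 15 G2/M genes, Mki67 included, rose with Mki67 (median 3.40) and 9 with Pcna (median 1.45). Many-on cells were higher at all 7 stages for 14 of 15 G2/M genes (median 2.36 log2 units) and for 11 of 16 S phase genes (median 1.36). E13.0 had only 2 many-on cells and E11.5 had 6, and each stage has equal weight in these medians and in the gene means that follow. Top2a was at 219 TPM in many-on cells and 18.5 TPM in the rest, and Cdc45, part of the replicative helicase, at 33.1 and 5.74 TPM. For 6 of 9 basal epithelial markers many-on cells were lower at all 7 stages: Krt5 was at 384 TPM against 609 TPM, and Krt14 at 222 against 502 TPM. The epithelial rule selected on Krt5 and Trp63 of these markers and on Col3a1 of the fibroblast markers, so the rule bounded their values. Summed fibroblast markers (8 genes) were at 13.02 to 236 TPM over stages in many-on cells and 14.5 to 165 TPM in the rest, and none of the 8 was higher or lower in many-on cells at all 7 stages. Among them Col1a2, Dcn and Col1a1 were on in 28.02, 26.3 and 15.7% of epithelial cells. The part of these marker levels in the histone split was not tested.

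Within cells that all had Mki67 at 10 TPM or more, many-on cells were set against the others at the 6 stages with at least 5 of each, a comparison added after the data had been seen. Mki67 itself was at 121 TPM in many-on and 48.2 TPM in the other cells, higher at all 6 stages, so its level was not matched. G2/M genes, Mki67 among them, had a median difference of 1.08, and 13 of 15 were higher at all 6 stages. S phase genes, Pcna among them, had 0.87, with 6 of 16. Slbp was at 117 TPM in many-on and 49.9 TPM in other Mki67-positive cells, and Ccne2, encoding cyclin E2, at 24.8 and 9.65 TPM. Aurkb was at 79.8 and 11.8 TPM. Ccnb2, encoding the mitotic cyclin B2, went the other way, with 21.4 and 37.5 TPM, higher in many-on cells at 1 of 6 stages. Cenpa was at 102 and 132 TPM, higher in many-on cells at 2 of 6 stages.

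Many-on cells also occurred among other cells. Of 466 cells with Col3a1 at 50 TPM or more and Krt5 under 10 TPM, 82 were many-on (17.6%, exact 95% interval 14.2 to 21.4%), but these cells and the epithelial cells come from different mixes of stages, with no such cell from E12.0. At E11.5 the share was 22.7% (5 of 22), against 11.1% in epithelial cells. At E13.0 these cells were many-on in 43 of 214 cases (20.1%), while 2 of 53 epithelial cells of that stage were, a difference that was not tested; nor were those at the other stages. None of the 6 Col3a1 cells of E13.5 was many-on. The shares in Col3a1 and epithelial cells were 42.9% (9 of 21) and 23.6% at E14.0, 12.9% and 13.48% at E15.0, and 10.7% and 17.2% at E17.0.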

How the data were processed

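Levels are TPM as the authors deposited them, 1 column per cell, for 1614 of 1666 labelled cells; the 52 others are marked low quality. Reads were processed on mm10 with bcl2fastq 1.0, HISAT2 2.0.4 and featureCounts (Subread 1.5.0), per the submitters' processing notes; the annotation release and the handling of reads with several matches are not given in the sources used here. No column was left unused (0). Cells were averaged within plates and plates within stages. Members, lists and rules were chosen with earlier results of these data known. Fits used limma 3.58.1 (R 4.3.3; lmFit, eBayes with trend), a pseudocount of 1 TPM, genes with a mean of 1 TPM or more (23671) and Benjamini-Hochberg adjustment, two-sided; the code was tested on simulated data. Stage values are given for the 3 highest members of a class, the 5 largest and 5 smallest Pcna differences and testis variants, and further values for members given as examples after the data were seen. Tables were made with Python 3.11.15, numpy 2.4.6, pandas 2.3.3 and scipy 1.17.1. Alternatives changed the filter, pseudocount, scaling, epithelial rule, ranking and stages used.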

Additional observations from a re-analysis of the deposited data

How the results depend on the processing

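No paired analysis was possible because replicate numbers only name cells in accession order; the tercile comparisons were taken within stages. The number of members called higher in the upper Pcna tercile was 53 of 64 and stayed between 31 and 54 over 18 alternatives. With Mki67 it was 50 and stayed between 31 and 56. The low value, 31 in both rankings, came with a filter at 10 TPM, which leaves 33 members to test. No member was called lower in either ranking, and no named difference changed sign past the threshold. For the trend with day the count was 0, and 1 with the rank of the stage (Hist1h2bc, higher) and 1 without E13.5 (Hist1h2an, lower). For the Pcna difference against day it was 0, 2 with the filter at 10 TPM (Hist2h2bb and Hist1h4b) and 1 without E13.0 (Hist2h3b). Many-on cells were 19.3%, 47.8% at 1 TPM, 6.28% at 50 TPM, 22.9% at 25 members, 17.1% at 35 members and 14.5 to 21.2% without 1 stage each, lowest without E12.0; the limits of 25 and 35 members and the left-out stages were chosen after seeing the data. Pearson's r on log2(TPM + 1) between the summed level and Pcna was 0.492, and with Mki67 0.671. Over all genes, 454 were called for the trend, but 27 without a filter, 302 with the filter at 10 TPM, 1408 with ranks, 713 with means of log2 values and 39 (without E15.0) to 398 (without E17.0) with 1 stage left out. With Pcna 1835 were called, 1214 without a filter and as few as 997 without E14.0; with Mki67 1332, 842 without a filter and as few as 718 without E15.0. The difference between rankings called 1 gene and up to 7; the Pcna difference against day called 0, and 17, 25 (without E13.0) and 8 under the filter, a left-out stage and means of log2 values. Median-of-ratios scaling gave 1177 genes higher and 508 lower with Pcna (1448 and 387 otherwise), and 755 and 419 with Mki67 (1069 and 263 otherwise). Rescaling without Mir6236, mitochondrial and ribosomal RNA shifted the median of all genes by 0.41 to 0.47 log2 units at every stage. Means of log2 values turned the members' median slope with day to -0.064. Hist4h4 passed with Mki67 without E13.0 (0.75) and with means of log2 values (0.46). TPM keeps no depth, so what depth limits could not be measured.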
